A study of Mus musculus with 12 samples.

Results

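miR-21 (mmu-miR-21 in the tables, RefSeq miR-21a-5p) was followed through T cell development, from marrow progenitors to mature thymocytes. It was chosen by name, as 1 of 548 mature miRNA names in the tables of 12 small RNA libraries. All of its sequence variants were counted, by length and by position. Its opposite arm, miR-21*, and the reads placed on its hairpin precursor were taken along, because they come from the same gene.

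The libraries came from C57BL/6 mice, with 1 library for each population. Each was made from total RNA, from which RNA of 19 to 24 nt was cut out of a gel. Adaptors were joined to molecules with a phosphate at the 5′ end and a hydroxyl at the 3′ end. Of the 4 marrow populations, LSK cells (lineage-negative, Sca+, cKit+) contain the stem cells, and the MPP (CD135+ CD106+) and LMPP (CD135+ CD106-) gates divide the CD135+ LSK cells. ProB cells (B220+ IgM- CD43hi) are early B cell precursors. The thymic populations were all CD90+. DN1 (CD44+ CD25-), DN2 (CD44+ CD25+), DN3 (CD44- CD25+) and DN4 (CD44- CD25-) carry neither CD4 nor CD8, and are CD3- except for DN4, which is CD3lo. DP cells carry both CD4 and CD8 and are CD3lo. CD4SP and CD8SP cells carry only the coreceptor in their name and are CD3hi CD24lo, a phenotype of mature thymocytes. MEF are embryonic fibroblasts from E14.5 embryos, the only library that is not of blood cells. How many mice were pooled for a library was not stated in the labels.

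A miRNA is cut by Dicer from a hairpin, and usually the strand of one arm is kept by an Argonaute protein while the other, the star arm, is mostly lost. The kept strand binds target mRNAs mainly through its seed, and lowers their translation and stability. miR-21 is known in many cell types as a brake on inhibitors of growth signalling and survival, with Pdcd4 and the Sprouty genes among its described targets. Its gene responds to STAT3, AP-1 and NF-kappaB, and in T cells it is known to increase after stimulation of the antigen receptor.

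The sequences are shown here because the part of the miRNA that was read differed between libraries, and every comparison below depends on it. The first lines are the RefSeq mature sequences of both arms and of a related mouse miRNA, miR-21c, with the seed (bases 2 to 8) in capitals.
miR-21: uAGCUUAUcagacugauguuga
miR-21*: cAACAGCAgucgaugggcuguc
miR-21c: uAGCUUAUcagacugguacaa
miR-21c has the seed of miR-21 and differs from it near the 3′ end. It is not a name in the tables. Of the 410 names that could be matched to RefSeq sequences, 0 others had the seed of miR-21, and the seeds of the other 138 names were not checked.

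In RefSeq (GRCm38.p6), miR-21 lies at chr11:86584120-86584141 and miR-21* at chr11:86584082-86584103, both on the minus strand. Their 92-nt hairpin, Mir21a, occupies chr11:86584067-86584158. In GENCODE M21 the hairpin lies within the untranslated part of the last exon of transcript Vmp1-201 (UTR chr11:86583865-86585310), on the same strand. miR-21c lies on another chromosome, at chr8:128278188-128278208.

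The most frequent read of miR-21 in each kind of library is given next, as the DNA letters of the tables, with the bases of the seed that it holds in capitals.
CD8SP, CD4SP, DN2, DN1, ProB, LMPP, MPP and LSK: GCTTATcagactgatgttga
DN3: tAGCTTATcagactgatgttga
DN4 and DP: AGCTTATcagactgatgttga
MEF: AGCTTATcagactgatgttgac
The reads of 8 libraries thus lacked the leading bases of the mature form and began at its base 3, those of DN3 at base 1, and those of DN4, DP and MEF at base 2. At least 99.2% of the miR-21 reads of every library began at that library's own base. The whole seed was read in 96.8% to 98.1% of the miR-21 reads of DN3, DN4, DP and MEF. It was read in at most 0.00790% of those in the other 8 libraries.

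The libraries differed in depth and in composition as well as in their first base. Reads assigned to mature miRNAs numbered 63386 in DN4, 308688 in MEF, 523881 in DP and between 979219 and 4572864 in the other 9 libraries. A count of 0, taken as 3 counts, would stand for up to 47.3 reads per 1000000 mature reads (RPM) in DN4 and 0.656 RPM in DN3. Among the 410 names matched to RefSeq, and leaving miR-21 out, miRNAs that begin with U held 39.6% of the reads in DN4, 24.5% in DP and 31.2% in MEF, against 65.9% to 77.7% in the other 9 libraries. Single miRNAs that begin with A weigh heavily in these shares. miR-181a held 22.0% of all mature reads in DN4 and 55.3% in DP, and miR-22 held 51.7% in MEF. The mean G and C content of the miRNAs read was 47.0% in DN4, 46.4% in DP and 47.1% in MEF, against 41.0% to 43.6% in the others. miR-21 itself begins with U and has a G and C content of 36.4%, whereas miR-21* begins with C and has 59.1%. Any level of miR-21 in DN4, DP and MEF therefore comes with this difference in composition, and its part in those levels was not tested. miR-142-3p, a blood cell miRNA that also begins with U, stood at 77249 RPM in DN4 and 79008 RPM in DP, against 992.3 to 14973 RPM in the other 9 blood-cell libraries. It had 150.6 RPM in MEF. The other arm of its hairpin, miR-142-5p, begins with C and went the other way. miR-142-5p stood at 7407 RPM in DN4 and 6564 RPM in DP, against 7215 to 60922 RPM in the other 9 blood-cell libraries. Markers of other cells were present in several libraries. The erythroid list (miR-451, miR-144 and miR-486) summed to 4655 RPM in LMPP and 4652 RPM in DN3 and to 19.1 to 1661 RPM in the other 10 libraries. Its members did not run alike, since miR-486 had 1054 RPM in LMPP but 92.9 RPM in DN3, where miR-451 had 4258 RPM. The epithelial list of 5 miRNAs summed to 766.3 RPM in DN1 and to 6.48 to 401.8 RPM in the others. The myeloid marker miR-223 had 0 reads in DN4, which allows up to 47.3 RPM, and 1.91 RPM in DP. Their part in the levels of miR-21 was not tested.

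**Figure D1:**
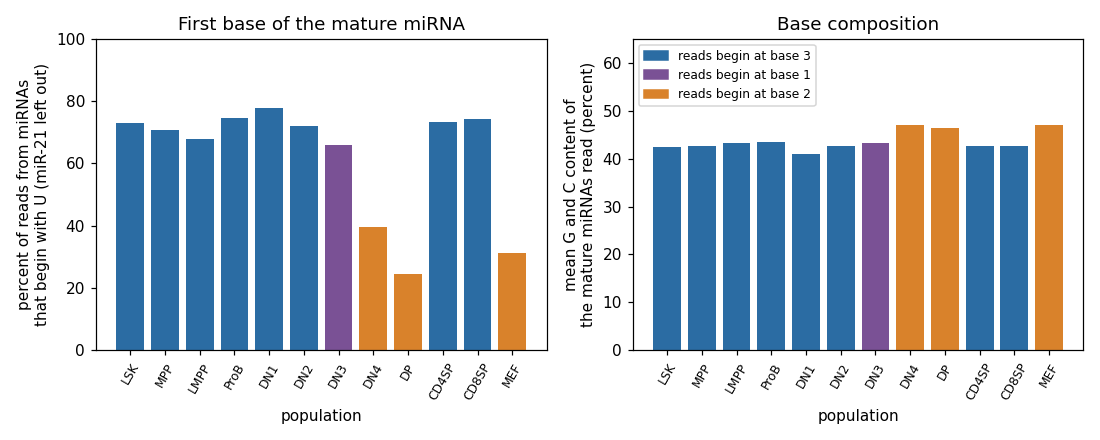
Composition of each library. Bars give, at left, the percent of matched mature reads (miR-21 left out) from miRNAs whose first base is U and, at right, the mean percent of G and C of the miRNAs read, with colour for the base at which reads begin. DN4, DP and MEF stand apart from the other 9 libraries in both panels.

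miR-21 was among the most abundant miRNAs of early haematopoietic and thymic cells, and its level spanned a 296.7-fold range (263.9 to 334.6) between DN1 and DP. All intervals are exact 95% intervals and cover counting error only. Because each population has 1 library, populations could not be tested against each other. A ratio was called higher or lower if both ends of its interval were past 2-fold in the same direction, with no fewer than 10 reads and 100 RPM in the library that had more. In bulk RNA, fewer cells that make a miRNA and less of it per cell cannot be told apart.

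In LSK miR-21 had 183698 reads, or 103041 RPM (102570 to 103513). In MPP it had 99823 RPM and in LMPP 87652 RPM. It was the most abundant miRNA in LSK and MPP and the second in LMPP, after miR-20a, a member of the miR-17 cluster that favours proliferation. In ProB it stood at 58069 RPM and ranked 3, below miR-16, a miRNA known to restrain the cell cycle.

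The highest level of all was in DN1, with 597384 reads and 159118 RPM (158715 to 159522), or 15.9% of all mature reads. DN2 followed with 112534 RPM and DN3 with 44856 RPM. In these early thymocytes it ranked 1 in DN1, 3 in DN2 and 4 in DN3.

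DN4 and DP were the low points. DN4 had 131 miR-21 reads and 2067 RPM (1728 to 2452), at rank 53. DP had 281 reads and 536.4 RPM (475.5 to 602.9), or 0.0536% of its mature reads, at rank 64. In both, miR-181a, which sets the sensitivity of the antigen receptor in thymocytes, was the most abundant miRNA.

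The mature thymocytes were again high. CD4SP had 148436 reads and 33005 RPM (32837 to 33173) at rank 9, and CD8SP had 71233 reads and 26776 RPM (26579 to 26973) at rank 13. MEF had 2151 reads and 6968 RPM (6677 to 7269) at rank 14.

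The 12 levels ran, from high to low, DN1, DN2, LSK, MPP, LMPP, ProB, DN3, CD4SP, CD8SP, MEF, DN4 and DP. Every ratio between neighbours in that order had an interval that did not reach 1. Only the last 3 neighbours differed beyond 2-fold, CD8SP over MEF by 3.84 (3.68 to 4.01), MEF over DN4 by 3.37 (2.83 to 4.05) and DN4 over DP by 3.85 (3.11 to 4.76). Among the 8 libraries that begin at base 3, the widest ratio was DN1 over CD8SP, at 5.94 (5.90 to 5.99).

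**Figure D2:**
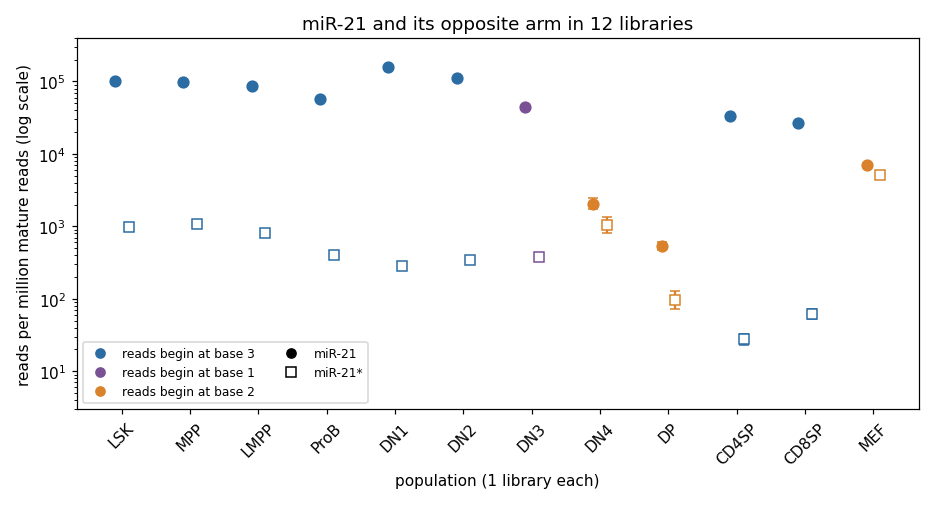
Level of miR-21 (filled circles) and miR-21* (open squares) in each library, in reads per 1000000 mature reads on a log scale, with exact 95% counting intervals and colour for the base at which reads begin. miR-21 is highest in DN1 (159118 RPM) and lowest in DP (536.4 RPM), and the distance between the arms is smallest in DN4 and MEF.

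Within the marrow miR-21 stayed inside 2-fold at every step. MPP over LSK was 0.969 (0.963 to 0.975), where 2.14% of the 140 miRNAs tested were called in either direction. LMPP over MPP was 0.878 (0.871 to 0.885), where 14.8% were called. ProB over LMPP was 0.662 (0.657 to 0.668), where 38.2% were called. The log2 ratio of miR-21, -0.59, was the median of the miRNAs tested, which include miR-21 itself. With TMM factors, which centre the bulk of the miRNAs, ProB over LMPP turned to 1.09. The step from LMPP to the B lineage thus showed no called difference in miR-21.

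DN1 cells, the earliest thymocytes here, had a higher value than LMPP without a call. DN1 over LMPP was 1.82 (1.80 to 1.83), where 47.5% of 158 miRNAs were called in either direction. The median miRNA tested stood at a log2 ratio of -0.75, and the ratio of miR-21 became 2.64 with size factors and 2.75 with TMM factors, both past the 2-fold rule. miR-223, a marker of myeloid cells, was at 17609 RPM in DN1 and 10296 RPM in LMPP, against 869.3 RPM in DN2 and 65.2 RPM in DN3. miR-150, which mature lymphocytes carry, was at 46469 RPM in DN1, against 2549 RPM in LMPP. The part of other cells in the DN1 level of miR-21 was not tested.

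The values of DN2 and DN3 lay below that of DN1. DN2 over DN1 was 0.707 (0.704 to 0.710), inside 2-fold, where 38.1% were called. DN2 over ProB, which sets the T against the B lineage, was 1.94 (1.93 to 1.95) with no call, where 28.4% were called. miR-21 was called lower in DN3 than in DN2, by 2.51-fold (2.49 to 2.52), a call that 14.1% of the miRNAs tested shared. The reads of these last libraries begin at different bases. In the same pair the star arm was at 373.7 RPM in DN3 and 343.6 RPM in DN2, a ratio of 1.09.

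Passage through the pre-antigen receptor checkpoint separates DN3 from DN4, and the widest drop between neighbouring stages lay there. DN4 was 21.7-fold below DN3 (18.3 to 26.0), and 28.3% of the 173 miRNAs tested were called lower. This pair mixes reads that begin at base 2 and at base 1. Of the tested miRNAs that begin with U, 23 of 66 were called lower and 17 higher in DN4, and of those with another first base, 14 of 72 were lower and 31 higher. Scaled to the total of miRNAs that begin with U, DN4 over DN3 was 0.0803, and scaled to miRNAs with at most 40% G and C it was 0.0790, against 0.0461 in RPM. With size factors it was 0.0296 and with TMM factors 0.0241, so the scalings moved it both ways, and it was called lower in each.

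DP was below DN4 by a further 3.85-fold (3.11 to 4.76), a comparison between libraries with the same first base. Of the 141 miRNAs tested 52.5% were called lower too, and their median log2 ratio was -1.50. miR-181a alone held 55.3% of the DP reads and 22.0% of those in DN4. With size factors the ratio of DP over DN4 was 0.793 and with TMM factors 0.899, and the call was lost in both. Set against DN2, DP was 209.8-fold lower (186.6 to 236.7), where 47.6% were called lower. The ratio of DP over DN2 was 0.00477 in RPM, 0.00699 with size factors and 0.0148 over the miRNAs that begin with U, and it stayed called in all 3.

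CD4SP and CD8SP cells, which have passed positive selection through their antigen receptor, had far more miR-21 than DP cells. CD4SP over DP was 61.5 (54.7 to 69.4), where 45.1% of 142 miRNAs were called higher. CD8SP over DP was 49.9 (44.4 to 56.3), where 50% of 152 were called higher. The first base differs in these pairs, and of the miRNAs tested that begin with U, 44 of 67 were higher in CD8SP than in DP, against 22 of 61 of those with another first base. Scaled to the miRNAs that begin with U, CD4SP over DP was 20.6 and CD8SP over DP 17.0. Both remained called under every scaling tried.

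CD4SP and CD8SP differed little from each other, with a ratio of 1.23 (1.22 to 1.24), where 15.2% of 132 miRNAs were called in either direction. Neither reached the levels of early thymocytes, in comparisons where all reads begin at base 3. CD4SP was 3.41-fold below DN2 (3.39 to 3.43), where 34.5% were called lower. CD8SP was 4.20-fold below DN2 (4.17 to 4.24), where 22.1% were. Against DN1, CD4SP was 4.82-fold lower (4.79 to 4.85) and CD8SP 5.94-fold lower (5.90 to 5.99), where 23.4% and 14.2% of the miRNAs were called lower.

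The same held against the marrow. CD4SP was 3.12-fold below LSK (3.10 to 3.14), where 42.5% of 153 miRNAs were called lower, and CD8SP 3.85-fold (3.82 to 3.88), where 31.2% of 157 were. The median log2 ratio of the miRNAs tested was -0.77 for CD4SP over LSK and -0.38 for CD8SP over LSK. With size factors CD4SP over LSK was 0.513 and with TMM factors 0.515, and the call was lost, while CD8SP over LSK kept its call.

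The fibroblasts were compared with the DN4 and DP libraries, which share their first base. MEF was 3.37-fold above DN4 (2.83 to 4.05), where 35.5% of 220 miRNAs were called higher, and 13.0-fold above DP (11.5 to 14.8), where 51% of 200 were. With size factors MEF over DN4 was 11.3, with TMM factors 4.24, and over the miRNAs with at most 40% G and C 8.43. MEF over DP was 4.72 with TMM factors and 5.79 without the 3 most abundant miRNAs, but 20.96 with both tables added and 21.6 over the miRNAs with at most 40% G and C. miR-22 alone held 51.7% of the reads in MEF. The miRNAs of the mesenchymal list, which mark fibroblasts, summed to 21959 RPM in MEF, with all 5 of its 5 members read, against 6.34 to 600.5 RPM in the 11 blood-cell libraries.

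**Figure D3:**
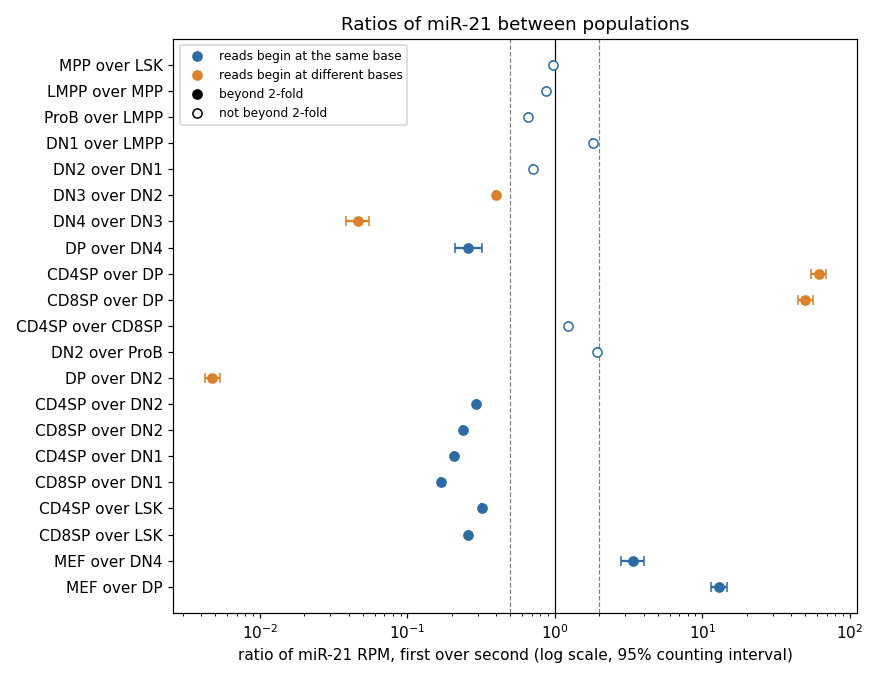
The 21 ratios of miR-21, first population over second, on a log scale with exact 95% counting intervals. Filled points are called beyond 2-fold (dashed lines), and colour shows whether the reads of the 2 libraries begin at the same base. The lowest ratio is DP over DN2 and the highest is CD4SP over DP, at 61.5.

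The star arm of miR-21 followed a different course from the miR-21 arm. It was highest in MEF, at 5037 RPM (4790 to 5294), and among blood cells in MPP (1094 RPM), DN4 (1057 RPM, 67 reads), LSK (981.6 RPM) and LMPP (802.7 RPM). ProB had 405.7 RPM, DN3 373.7 RPM, DN2 343.6 RPM and DN1 279.4 RPM. The lowest were DP at 97.4 RPM, CD8SP at 62.4 RPM and CD4SP at 27.6 RPM (22.9 to 32.9). Among the libraries up to DN3, the star arm was lowest in DN1, where miR-21 was highest.

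Its most frequent reads began where those of miR-21 did, as these 3 forms show (capitals again mark the bases of its seed that were read).
CD4SP and the other 7 libraries that begin at base 3: ACAGCAgtcgatgggctgtc
DN3: cAACAGCAgtcgatgggctgtc
DN4 and MEF: AACAGCAgtcgatgggctgtc

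Between libraries that begin at base 3, miR-21 and miR-21* differed unequally. DN1 over LMPP was 1.82 for miR-21 but miR-21* was called lower in DN1, by 2.87-fold (2.62 to 3.15). Against LSK, miR-21* was 35.6-fold lower in CD4SP (29.7 to 43.1) and 15.7-fold lower in CD8SP (13.4 to 18.6), further than miR-21 itself. Against DN2 it was 12.5-fold lower in CD4SP (10.3 to 15.2) and 5.51-fold lower in CD8SP (4.66 to 6.54). Against DN1 it was 10.1-fold lower in CD4SP (8.41 to 12.3), more than the 4.82-fold of miR-21, but 4.48-fold lower in CD8SP (3.80 to 5.31), less than the 5.94-fold of miR-21.

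The number of miR-21 reads per miR-21* read sums this up without any scaling. It was 105.0 in LSK (100.1 to 110.1), 91.2 in MPP, 109.2 in LMPP and 143.1 in ProB. It was 569.5 in DN1 (536.0 to 605.6) and 327.6 in DN2 (306.0 to 351.1). In the mature thymocytes it was 1197 in CD4SP (1004 to 1439) and 429.1 in CD8SP (368.5 to 502.8). The ratio thus ran from 91.2 to 143.1 in the marrow libraries and from 327.6 to 1197 in the thymic libraries that begin at base 3. The intervals cover counting error only. Other hairpins were compared for some pairs of these libraries, as given next, but not across all of them at once.

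Other hairpins with at least 10 reads of both arms served as a comparison for these changes. From LSK to CD4SP the log2 ratio of the arms of miR-21 differed by 3.51, against a median of 0.11 for 32 other hairpins, of which 0 differed by more. CD8SP over LSK gave 2.03 against a median of 0.15, and 0 of 33 others were above it. CD4SP over DN2 gave 1.87 against 0.19, with 4 of 37 above. DN1 over LMPP gave 2.38 against 0.56, with 0 of 35 above. DN2 over DN1 gave -0.80 against -0.37, with 31 of 39 others above. This ranks the arms in these libraries, with no test between populations.

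In DN4, DP and MEF, whose reads begin at base 2, the arms stood closer together. miR-21 had 1.96 reads per miR-21* read in DN4 (1.45 to 2.67), 5.51 in DP (4.08 to 7.58) and 1.38 in MEF (1.30 to 1.48). DN3, whose reads begin at base 1, had 120.0 (114.4 to 125.9), which is within the range of the marrow libraries. DN4 over DN3, which was 21.7-fold lower for miR-21, was 2.83-fold higher for miR-21* (2.18 to 3.61). DP was lower than DN4 for both arms, by 10.9-fold for miR-21* (7.43 to 15.9). Against DN2, the log2 arm ratio of miR-21 differed by -7.39 in DN4, -5.89 in DP and -7.89 in MEF. The medians of the other hairpins were also negative, at -2.08, -1.69 and -1.84, and 13 of 13 others in DN4, 19 of 23 in DP and 15 of 15 in MEF lay above miR-21. For DN3 over DN2 the log2 arm ratio of miR-21 differed by -1.45, against a median of 0.24, with 36 of 40 others above. The first base differs between all of these libraries and DN2, and the base composition between DN4, DP and MEF and DN2, as given above, and their part in the arm ratio was not tested.

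The 3′ ends of miR-21 also varied between populations, but the range of ends that could be seen differed between libraries. No miR-21 read was shorter than 18 nt, so the shortest end that could be seen depended on the first base. Among mature reads, those 2 bases longer than RefSeq occurred in DN3 only. In the other libraries with a hairpin table they lay among the hairpin reads. Among reads that matched the hairpin perfectly, the RefSeq end was the most frequent in 11 of 12 libraries, at 46.9% in DN3 to 71.2% in MPP. In MEF it held 40.3%, and a form 1 base longer, with the next base of the hairpin (C), held 53.8% (51.6 to 56.0).

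The form with the added C made up 15.0% of the perfect reads in LSK, 14.3% in MPP, 13.9% in LMPP, 12.3% in DN1, 11.3% in CD4SP and 12.5% in CD8SP. It made up 28.9% in ProB (28.7 to 29.2), 23.2% in DN2 (23.0 to 23.3) and 32.7% in DN3 (32.5 to 32.9). DN4 had 33.1% from 40 of 121 reads (24.8 to 42.2), and DP 17.4% from 46 of 264 reads (13.0 to 22.5).

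Reads 1 base shorter than RefSeq went the other way among the 8 libraries that begin at base 3. They made up 6.13% in ProB and 8.58% in DN2, against 22.0% in DN1, 19.7% in CD8SP, 17.8% in CD4SP, 16.8% in LSK, 14.8% in LMPP and 14.0% in MPP. In DN3 they made up 16.9%, beside its high share of longer reads. The reads that carried 2 further hairpin bases were few. They made up 2.93% of the perfect reads of both tables in ProB, 2.35% in MEF, 1.84% in DN3 and 1.78% in DN2, against 0.806% to 1.12% in the other 7 libraries with both tables.

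This lengthening was partly shared by other miRNAs. miR-21 reads were on average 0.235 nt longer in ProB than in LMPP, where the median of 56 other miRNAs was 0.0825 nt, 46 of the 56 were longer in ProB, and 8 had a larger difference than miR-21. DN2 minus DN1 was 0.248 nt for miR-21 against a median of 0.0869 nt, with 48 of 56 longer in DN2 and 4 with a larger difference. CD4SP minus DN2 was -0.207 nt against a median of -0.0470 nt. The gel cut of 19 to 24 nt bears on read length, and whether it was cut alike for each library was not given in the sources used here.

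**Figure D4:**
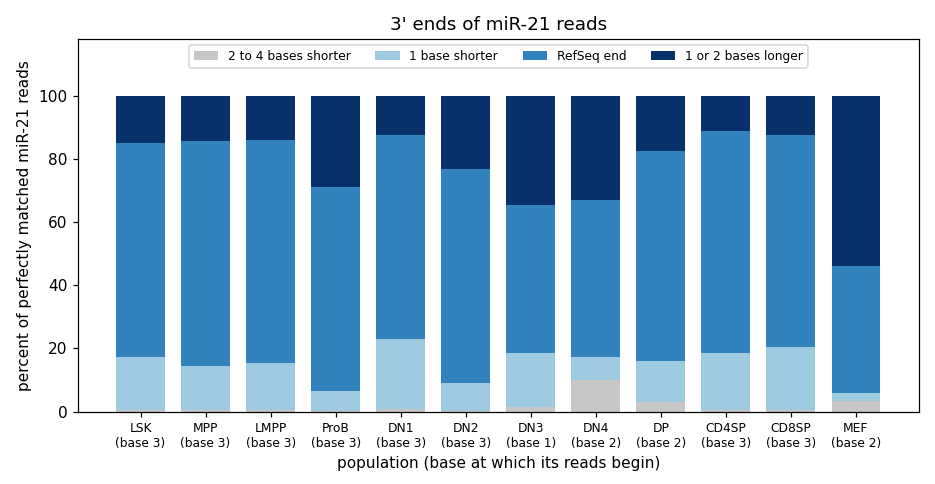
Shares of miR-21 reads by 3′ end, as a percent of the perfectly matched reads in each library, with the base at which its reads begin under each name. Reads 1 or 2 bases longer than RefSeq are most frequent in MEF, DN3, DN4, ProB and DN2. Only mature reads are drawn, and among them reads 2 bases longer occur in DN3 only.

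The star arm had its own pattern at the 3′ end. Reads 1 base shorter than RefSeq made up 4.46% of miR-21* reads in LSK, 4.57% in MPP, 5.73% in LMPP and 10.4% in ProB. They made up 19.9% in DN1, 12.3% in DN2, 20.2% in CD4SP and 18.1% in CD8SP. Outside these libraries the share was 30.7% in DN3, 41.8% of 67 reads in DN4, 54.9% of 51 reads in DP and 23.9% in MEF. The thymic libraries thus all had larger shares of these shorter star reads than the marrow progenitors LSK, MPP and LMPP. ProB, also from marrow, lay between them at 10.4%. The first base of the reads differs in DN3, DN4 and DP, and star reads of other hairpins were not compared.

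Distinct sequences numbered 15 in DN4, 20 in DP, 61 in MEF and between 151 and 994 in the other libraries, with 994 in DN3. Reads that matched the hairpin perfectly made up 89.4% of miR-21 reads in DN3 and 92.4% to 95.4% in the others. The single most frequent sequence held 41.7% of the miR-21 reads in DN3, 45.8% in DN4, 50.7% in MEF and 60.9% to 67.3% in the other 9 libraries.

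Reads placed on the hairpin after the mature sequences had been assigned added little. In the 11 libraries whose hairpin table was used they made up 3.24% of all miR-21 reads in LSK to 9.48% in MEF. On the star arm lay 10 of 16 in DN4, 5 of 15 in DP and 119 of 388 in MEF, and in the other 8 libraries nearly all lay on the arm of miR-21. Only 1 read in all, in DN3, lay in the loop. With both tables and both arms added, DN4 over DN3 was 0.0660 and CD8SP over DP 42.8.

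miR-21 is often grouped with other miRNAs that change when lymphocytes are activated, and 7 of these were set beside it: miR-155, miR-146a, miR-146b, miR-221, miR-222, miR-132 and miR-31. They did not move as a block. In CD4SP over DP, 4 of the 6 tested were called higher and 1 lower, and in CD8SP over DP, 5 were higher and 1 lower, against 45.1% and 50% called higher among all miRNAs. In DP over DN2, 5 of 6 were called lower, as miR-21 was, against 47.6% of all miRNAs tested.

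miR-155, which promotes effector responses and is induced by the antigen receptor, had the highest Pearson correlation with miR-21 over the 11 blood-cell libraries, among 119 miRNAs compared. By rank correlation miR-222 (0.81) and miR-221 (0.78) were above miR-155 (0.68). miR-155 had 45.8 RPM in DP and 157.8 RPM in DN4, against 3436 RPM in DN2. It had 5177 RPM in CD4SP and 4429 RPM in CD8SP, so that CD4SP over DP was 113.0 (75.9 to 176.4). Unlike miR-21 it was not called lower in CD4SP than in DN2, with a ratio of 1.51 (1.47 to 1.54).

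miR-132 was read mainly in the mature thymocytes, with 621.0 RPM in CD4SP and 337.2 RPM in CD8SP, against 15.8 RPM in DN2 and 94.7 RPM in DN4. The DN4 value rests on few reads, since 3 counts there stand for 47.3 RPM, and DN4 over DN3 was not called. miR-221 and miR-222, which come from a common precursor transcript, ran the other way. miR-221 was 22.1-fold lower in CD4SP than in DN2 (20.2 to 24.2), and miR-222 was 22.6-fold lower (17.2 to 30.4). miR-146a, a brake on NF-kappaB signalling, was at 7079 RPM in DN1, 1512 RPM in CD4SP and 95.4 RPM in DP. It was lowest in DN3, at 27.0 RPM, and DN4 over DN3 was 53.7 (40.6 to 71.0), where miR-21 was lower. Of the 5 tested in that pair, 1 was called higher and 2 lower, against 28.3% of all miRNAs called lower. miR-31 and miR-146b were called higher in DN3 than in DN2, at ratios of 3.33 and 4.09, where miR-21 was lower. Of the 6 tested there, 2 were higher and 3 lower, against 14.1% of all miRNAs called lower.

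The miRNAs most like miR-21 were sought by the Pearson correlation of log2 RPM over the 11 blood-cell libraries, among 119 miRNAs that reached 1000 RPM in at least 1 of them. The highest values were those of miR-155 (0.96), miR-24 (0.95), miR-20a (0.94), let-7f (0.93), let-7a (0.93) and miR-32 (0.93). miR-32 had only 3 counts in DN4 (47.3 RPM) and 3 in DP (5.73 RPM), so these points are uncertain. The lowest were those of miR-181a (-0.89), miR-423-5p (-0.88) and miR-423-3p (-0.87). The points share library depth, first base and base composition, and the correlations are a description of 11 libraries.

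Without DN4 and DP, a choice made after seeing the data, the correlations over the other 9 blood-cell libraries were 0.41 for miR-155, 0.35 for miR-24 and -0.39 for let-7f. The highest were then those of miR-223 (0.83), miR-221 (0.78) and miR-222 (0.77), and 0 of the 6 above were among the first 6. Over the 8 libraries that begin at base 3, miR-155 had a correlation of 0.37, miR-24 of 0.25 and let-7f of -0.40. The 6 highest there were miR-210 (0.88), miR-340-5p (0.85), miR-500 (0.82), miR-223 (0.81), miR-671-5p (0.81) and miR-29b (0.78), and 0 of the first 6 were among them. miR-24, for example, was at 45420 RPM in CD8SP and 43594 RPM in LSK, where miR-21 had 26776 RPM and 103041 RPM.

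**Figure D5:**
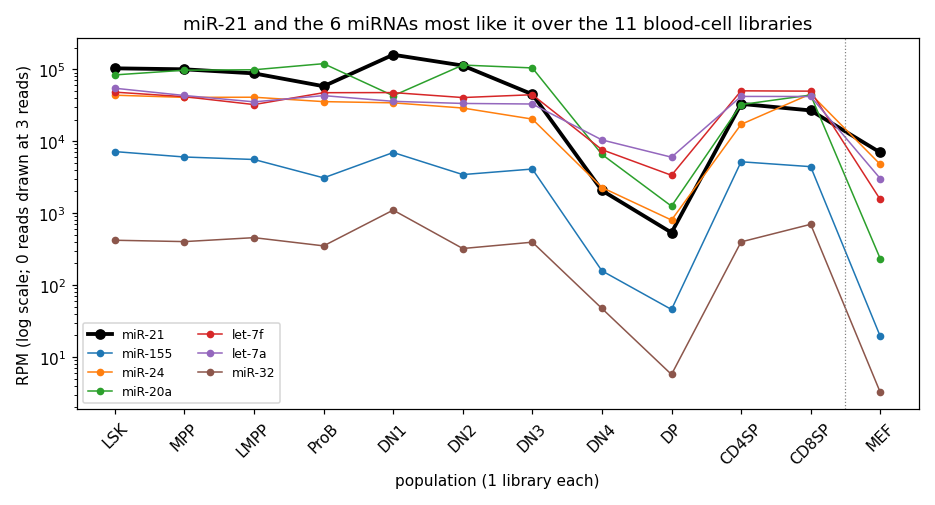
RPM on a log scale of miR-21 (black) and of the 6 miRNAs with the highest correlation with it over the 11 blood-cell libraries, with MEF at right of the dotted line, and a library with 0 reads drawn at 3 reads. All 7 lines have their lowest blood-cell values in DP and their next lowest in DN4, where miR-32 had 3 reads in each library.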

How the data were processed

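In the tables that the authors deposited, a line holds a sequence, its miRNA name, length, position and raw count of reads (per the file headers, not normalised). The aligner, the adaptor trimming and the miRNA release were not given in the sources used. Counts of the mature tables of 12 libraries were summed by name, with a sequence of several names split equally, and scaled to reads per 1000000 mature reads (RPM). miR-21 shared no sequence with another name. Hairpin tables of 11 libraries were used, none of CD4SP. The names in the 2 tables of CD8SP were of the opposite kind, so its tables were taken by the names they hold. Between 5 and 87 lines of each table were empty and not used. Reads were matched to RefSeq miRNAs and the RefSeq hairpin Mir21a (GRCm38.p6), and the transcripts that overlap it were taken from GENCODE M21.

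With 1 library for each population no test and no p-value was computed. Ratios have exact 95% conditional binomial (Clopper-Pearson) intervals, levels exact Poisson intervals and shares exact binomial intervals. These and the floor of 3 counts cover counting error only, since reads copied by PCR are not separate molecules. The call rule was also run on simulated counts that held counting error only, which cannot show how it behaves between real libraries. Alternatives were size factors (DESeq2 1.42.0), TMM (edgeR 4.0.16), other totals, read filters, thinning to the shallowest library, and rules of 1.5-fold and 4-fold. Totals of miRNAs that begin with U or have at most 40% G and C, the comparison of read lengths with other miRNAs, and correlations without DN4 and DP were added after seeing the data. Python 3.11.15, numpy 2.4.6, scipy 1.17.1, pandas 2.3.3 and R 4.3.3 were used.

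Named were miR-21, miR-21*, names with its seed, the 6 miRNAs most like and 3 least like it, 7 miRNAs linked to activation, the most abundant miRNA of a library, and cell type markers. miR-21 and these lists were chosen with earlier results of these data known.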

Additional observations from a re-analysis of the deposited data

How the results depend on the processing

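Of 310 values of the 21 ratios under alternative settings, 290 kept the direction and the side of the fold rule. Among the 290, 21 with shared sequences counted in full and 21 with them left out could not change. This is because miR-21 shared no sequence with another name. The 1.5-fold and 4-fold rules reuse the main ratios, so they could change a call but not a direction. The most abundant miR-21 sequence alone turned MPP over LSK to 1.02 and raised DN2 over ProB to a called 2.03, and TMM turned ProB over LMPP to 1.09. Calls gained were DN1 over LMPP with size factors (2.64), TMM (2.75) and the 1.5-fold rule (1.82), and DN2 over ProB with the total without miR-21 (2.06) and the 1.5-fold rule (1.94). DP over DN4 lost its call with size factors (0.793), TMM (0.899), the total without miR-16, miR-181a and miR-20a (0.451), the total of miRNAs that begin with U (0.410, added after seeing the data) and the 4-fold rule (0.260). CD4SP over LSK lost it with size factors (0.513), TMM (0.515) and the 4-fold rule (0.320). The 4-fold rule also ended the calls of DN3 over DN2 (0.399), CD4SP over DN2 (0.293), CD8SP over LSK (0.260) and MEF over DN4 (3.37). A stricter rule ends calls by its own construction, and for the scalings the cause was not tested. Adding both tables was not possible for CD4SP. Of the 6 miRNAs most like miR-21, 0 remained by rank correlation, 3 with all 12 libraries, 0 without DN4 and DP (added after seeing the data) and 0 over the 8 libraries that begin at base 3.

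No paired analysis was possible because each population has 1 library. The 131 reads in DN4 and 281 in DP limit what can be said of sequence variants there.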

Other observations

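Other miRNAs known from blood cells had their own courses over the same libraries. miR-126-3p, known from stem cells and endothelium, stood at 21752 RPM in LMPP, 20340 RPM in MPP and 10607 RPM in LSK, and at 83.1 RPM in CD8SP and 122.5 RPM in CD4SP. Its lowest blood-cell level was that of DP, at 19.1 RPM, and DN4 had 189.3 RPM. miR-150, which restrains Myb, stood at 50003 RPM in CD8SP and 23293 RPM in CD4SP, against 4339 RPM in DP. The erythroid miR-451 stood at 3464 RPM in LMPP and 4258 RPM in DN3, against 3.24 to 1149 RPM in the other 10 libraries. Of the same list, miR-144 stood at 136.8 RPM in LMPP and 301.1 RPM in DN3. miR-486 stood at 1054 RPM in LMPP but 92.9 RPM in DN3, below its 759.5 RPM in LSK.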
